A study of Rattus norvegicus with 150 samples.

Results

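Hif1a, Vegfa, Adm, Slc2a1, Hk2 and Ldha are 6 genes of the hypoxia pathway, followed here in rat muscle that carried small cylinders of cobalt or of another metal. They were chosen by name, because cobalt ions mimic hypoxia, and found in the count table by their Ensembl identifiers, as 6 of 32545 genes. The identifiers are ENSRNOG00000008292 (Hif1a), ENSRNOG00000019598 (Vegfa), ENSRNOG00000027030 (Adm), ENSRNOG00000007284 (Slc2a1), ENSRNOG00000006116 (Hk2) and ENSRNOG00000013009 (Ldha). The table gives no gene names, so the pairing of identifier and name comes from this choice. The question was whether these genes follow cobalt over metals and times. RNA was sequenced from the gastrocnemius of male Sprague-Dawley rats, which were about 30 days old on arrival and had at least 2 weeks to settle before surgery. Each rat carried 4 cylinders, 2 in each limb, 1 mm across and 2 mm long. Tantalum (Ta) served as the surgical sham, so the controls also carried a metal implant, and no group without an implant was analysed here. The other metals were cobalt (Co), nickel (Ni), depleted uranium (DU) and a metal labelled P, whose label is kept as written because the labels do not spell it out. The design text lists lead among the metals sequenced. Muscle was taken 1, 3, 6 or 12 months after implantation, except that Ni had no group at 12 months. Each of the 19 groups held 8 libraries, apart from Ta at 1 month and Co at 6 months with 7 each, which made 150 libraries in all.

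Hypoxia-inducible factor 1 is a transcription factor made of an oxygen-regulated alpha subunit, encoded by Hif1a, and a stable beta subunit. In cells with oxygen, prolyl hydroxylases mark the alpha subunit for destruction. Cobalt ions interfere with these iron-dependent enzymes, so the alpha protein accumulates with oxygen present, and for this reason cobalt salts are widely used to imitate hypoxia. This control acts on the protein, whereas the counts here measure RNA. Vegfa encodes a secreted growth factor for blood vessels, and Adm encodes adrenomedullin, a peptide that widens vessels. Slc2a1 encodes the glucose transporter GLUT1, Hk2 encodes hexokinase 2, which phosphorylates glucose as it enters glycolysis, and Ldha encodes the lactate dehydrogenase subunit that turns pyruvate into lactate. The last 5 are textbook targets of the factor.

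The factor binds DNA at a short core, ACGTG or GCGTG. The windows of 250 bases before the annotated start are shown for Slc2a1 and Adm, the targets that were highest with Co, and for Ldha, a target that was not. They come from RefSeq on build GRCr8, where all 6 genes were matched by symbol. Capitals mark either core on either strand, so that CACGT and CACGC are the same cores read from the other strand, and adjacent or overlapping matches run together.
Slc2a1, chr5:138002272-138002521, plus strand: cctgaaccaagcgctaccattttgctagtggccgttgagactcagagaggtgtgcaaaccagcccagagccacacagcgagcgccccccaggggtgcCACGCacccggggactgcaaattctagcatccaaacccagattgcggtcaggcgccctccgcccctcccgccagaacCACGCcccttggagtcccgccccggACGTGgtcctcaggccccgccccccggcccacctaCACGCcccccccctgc
Adm, chr1:174179950-174180199, plus strand: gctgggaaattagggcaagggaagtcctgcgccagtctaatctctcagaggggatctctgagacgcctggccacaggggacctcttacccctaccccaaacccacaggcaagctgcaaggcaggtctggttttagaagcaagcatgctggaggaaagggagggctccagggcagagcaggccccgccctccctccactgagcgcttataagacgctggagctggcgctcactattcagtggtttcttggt
Ldha, chr1:106507842-106508091, plus strand: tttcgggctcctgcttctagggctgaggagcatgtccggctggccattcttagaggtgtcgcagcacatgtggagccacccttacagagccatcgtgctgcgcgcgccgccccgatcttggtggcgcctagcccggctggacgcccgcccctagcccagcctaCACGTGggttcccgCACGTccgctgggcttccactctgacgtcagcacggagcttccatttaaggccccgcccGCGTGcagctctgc
The Slc2a1 window held 4 matches, of which 1 was ACGTG, starting 51 bases before the start, and 3 were GCGTG. In the Ldha window there were 3 matches of ACGTG, 2 of them on opposite strands of 1 CACGTG stretch, and 1 of GCGTG. The Adm window held no match, and neither did the Hk2 window or the windows at the 2 starts listed for Vegfa. Hif1a itself had 3 matches of ACGTG in its window. Across all 33469 RefSeq windows of the same length, 16.6% held ACGTG, 25.9% held GCGTG and 36.7% held either. A match describes the letters of the window and does not show that the factor binds there.

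A library held between 12674115 and 21921859 counts (median 15778710). Levels below are CPM, which are counts relative to the library's total, after TMM scaling over all 150 libraries. They are not compared between genes because they are not per length. Tests are edgeR's quasi-likelihood test of the libraries compared, with Benjamini-Hochberg adjustment over all genes tested, and a gene was called at an adjusted p under 0.05. No label says which rat a library came from, and the p-values therefore measure how far libraries differ, which may be technical in part. DU replicate 2 at 3 months stood apart, with a median correlation with its group of 0.415 against a median of 0.961 over all libraries. The lowest TMM factor, 0.459, belonged to Co replicate 1 at 6 months, whose median correlation was 0.842. Correlations below 0.842 were also found for DU replicate 6 at 12 months (0.790) and Co replicate 3 at 1 month (0.821). The same held for Co replicates 2 and 8 at 3 months, at 0.799 and 0.834. In bulk muscle, more cells of a type and more RNA per cell cannot be told apart. The marker lists for muscle and for invading cells could not be matched to identifiers, so the tissue was not checked against its markers.

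Cobalt at 3 months stood at the end of the order of the 19 group medians for all 6 genes, but in opposite directions. Adm, Slc2a1 and Hif1a had their highest group median there, at 4.16, 6.40 and 38.1 CPM. Vegfa, Hk2 and Ldha had their lowest, at 319.8, 44.3 and 1671 CPM. The share of all genes at an end of their own order in that group was not counted. The high end held with library totals in place of TMM scaling, but the low end moved. With totals Co at 3 months was at place 18 of 19 from the top for Hk2 and Ldha and at place 13 for Vegfa. The next group in the order was DU at 6 months for Adm (2.48 CPM), and Co at 1 month for Slc2a1 (4.53 CPM) and Hif1a (24.9 CPM). From the low end, the next were Ni at 6 months for Vegfa (342 CPM), Ni at 1 month for Hk2 (64.3 CPM) and Ta at 3 months for Ldha (1933 CPM). Libraries of neighbouring groups in these orders overlapped for every member. None of the 6 genes had the libraries of Co and Ta fully apart at any time, where 0.104, 0.185, 0.0582 and 0.0332% of the genes tested did at 1, 3, 6 and 12 months.

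**Figure D1:**
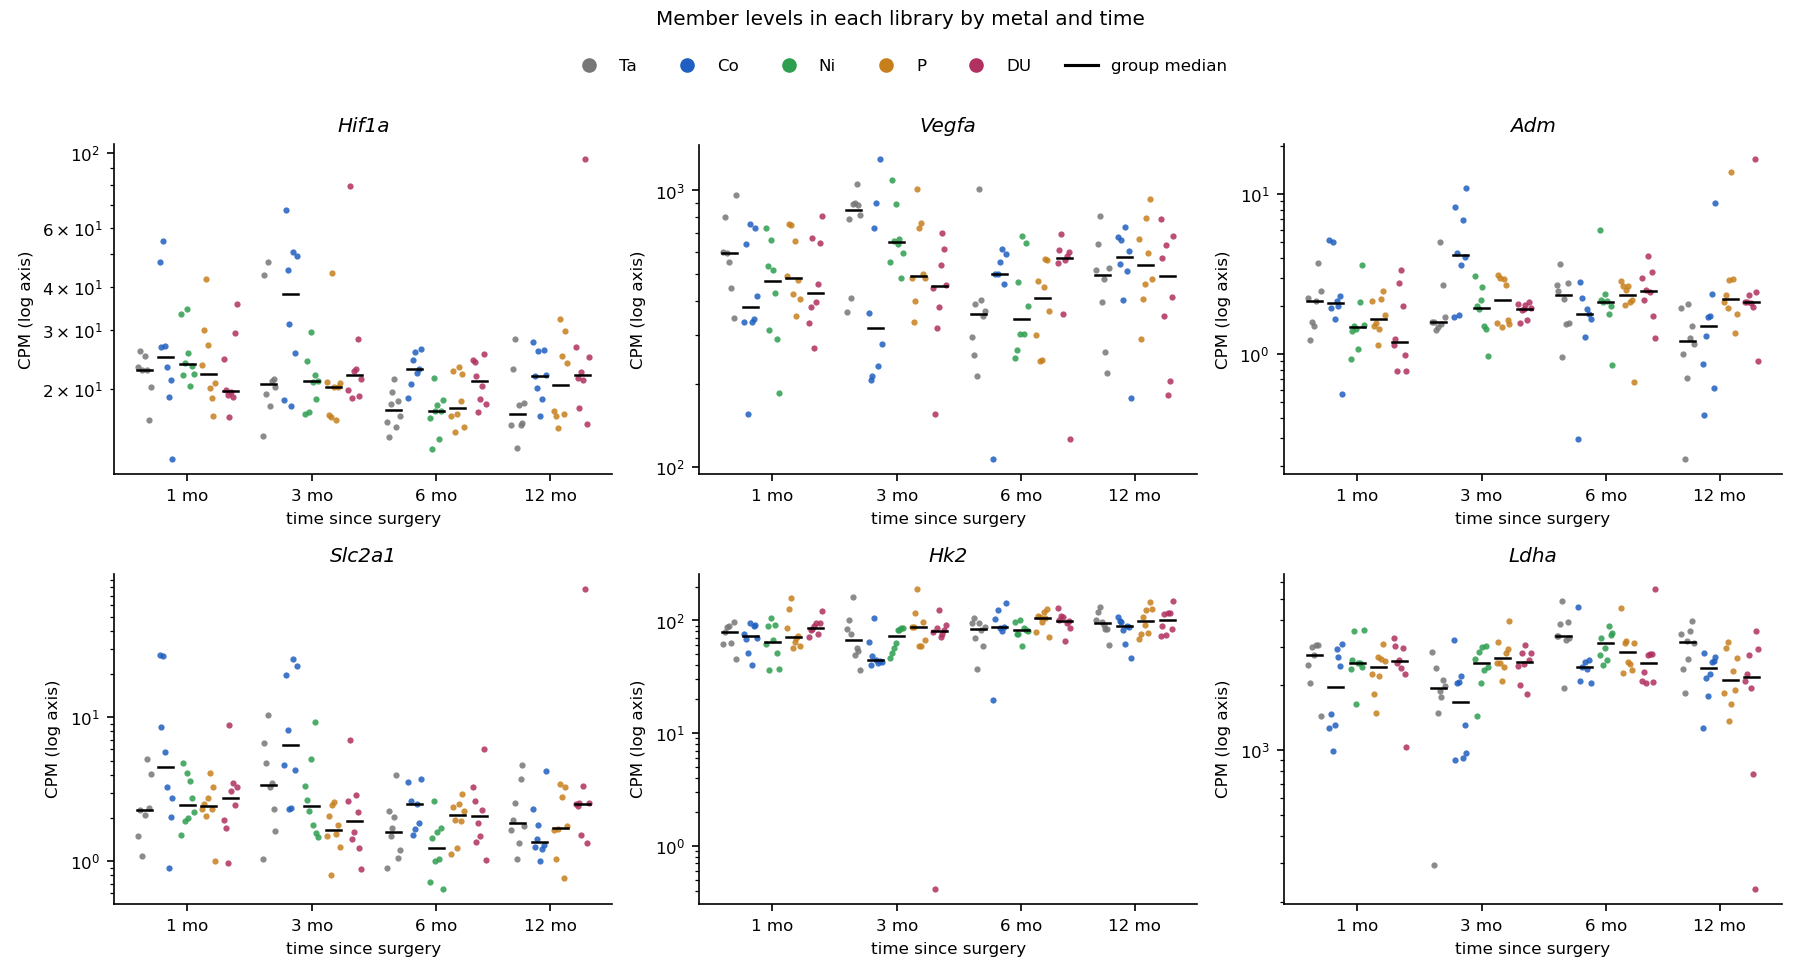
Level of each of the 6 genes in each of the 150 libraries, as CPM on a log axis, grouped by months since surgery and coloured by metal, with a black line at each group median. Co at 3 months has the highest median for Adm, Slc2a1 and Hif1a and the lowest for Vegfa, Hk2 and Ldha, and its points spread widely.

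Against Ta of the same time, Co called none of the 6 genes at any time. The share of all genes called was 0.0% at 1 month, 6.44% at 3 months, 0.0% at 6 months and 0.0083% at 12 months. At 3 months the deviations of same-numbered Co and Ta libraries correlated weakly (r from 0.109 to 0.426), and were not compared with those of differently numbered ones. A replicate block there took the share from 6.44% to 0.00805%, or 1 gene. It left the members at 0 called, with 4 instead of 2 at an unadjusted p under 0.05. At an unadjusted p under 0.05 there were 1, 2, 1 and 1 members at the 4 times in edgeR, beside 14.5, 23.9, 6.8 and 13.5% of all genes. DESeq2 called Slc2a1 at 1 month, Adm at 3 months and Hif1a at 6 months, beside 4.04, 11.9 and 0.418% of all genes. The weighted voom fit of limma called Hif1a and Ldha at 6 months, beside 4.76% of all genes, and no member at the other times. At each time the Co, Ni, P and DU groups were compared with the same Ta libraries, so these comparisons are not independent of each other.

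Hif1a, the regulator, ran from 17.8 to 67.9 CPM with Co at 3 months (median 38.1) and from 14.5 to 47.5 CPM with Ta (median 20.8). The groups overlapped, and 3 of 8 Co libraries lay above every Ta library. Co differed from Ta by a log2 fold change of 0.59 ± 0.32 (SE, n = 8 and 8, edgeR adjusted p = 0.259). At 6 months the difference was smaller and tighter, with Co from 18.8 to 26.3 CPM (median 22.9) and Ta from 14.4 to 21.4 CPM (median 17.4). All 7 Co libraries lay above the Ta median and 5 above every Ta library, and the log2 fold change was 0.39 ± 0.11 (edgeR unadjusted p = 0.0021, adjusted p = 0.405). That comparison called no gene with edgeR, and Hif1a reached an adjusted p of 0.0341 with DESeq2 and 0.00789 with voom. All libraries in 1 model called no member there. DU at 6 months was also above Ta for Hif1a, by 0.27 ± 0.11 (edgeR adjusted p = 0.353), with 4 of 8 libraries above every Ta library. P and Ni were at 0.11 ± 0.12 and -0.05 ± 0.11, and Co against DU was 0.12 ± 0.11. Ta at 6 months was at place 17 of the 19 group medians. For Co against Ta, the log2 fold change of Hif1a was 0.37 ± 0.25 at 1 month and 0.28 ± 0.14 at 12 months, with adjusted p of 0.547 and 0.402 in edgeR.

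Adm, the vasodilator peptide, ran from 1.71 to 10.9 CPM with Co at 3 months (median 4.16, 26 to 254 counts) and from 1.41 to 5.02 CPM with Ta (median 1.58, 18 to 64 counts). Every Co library lay above the Ta median and 3 of 8 lay above every Ta library. The log2 fold change of 1.31 ± 0.40, or 2.49-fold, had an adjusted p of 0.0602 in edgeR and of 0.0163 in DESeq2. Leaving out 1 library brought edgeR's call for Adm when that library was Ta replicate 5 or Co replicate 1, 4 or 5. Its log2 fold change was 0.29 ± 0.38 at 1 month, -0.36 ± 0.33 at 6 months and 0.89 ± 0.55 at 12 months, with edgeR adjusted p of 0.778, 0.999 and 0.482. At 12 months the highest library, Co replicate 8 with 8.79 CPM, stood well above the Co median of 1.51 CPM, and without it the log2 fold change was 0.07.

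Vegfa, the vessel growth factor, did not follow Adm. With Co at 3 months it ran from 206 to 1294 CPM (median 319.8) and with Ta from 364 to 1059 CPM (median 852). Of 8 Co libraries, 5 lay below every Ta library and 1 above every Ta library. This gave a log2 fold change of -0.52 ± 0.40 (edgeR adjusted p = 0.43). At 1, 6 and 12 months it was -0.41 ± 0.31, 0.20 ± 0.35 and 0.17 ± 0.27, with edgeR adjusted p of 0.597, 0.999 and 0.81.

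Slc2a1, the glucose transporter, had the widest spread. With Co at 3 months it ran from 2.29 to 25.3 CPM (median 6.40, 34 to 566 counts), against 1.03 to 10.3 CPM with Ta (median 3.39, 15 to 168 counts). The log2 fold change was 1.44 ± 0.57, or 2.71-fold (edgeR adjusted p = 0.136). Only replicates 2, 6 and 8 of Co exceeded the highest Ta library. At 1 month Co ran from 0.896 to 27.2 CPM (median 4.53) and Ta from 1.09 to 5.15 CPM (median 2.28). There the log2 fold change was 1.87 ± 0.66, or 3.65-fold, with an adjusted p of 0.21 in edgeR and of 0.0444 in DESeq2. Of the 8 Co libraries at 1 month, 4 lay above every Ta library and 1 below every Ta library. By 6 and 12 months Co reached at most 3.71 and 4.25 CPM, and the log2 fold change was 0.45 ± 0.32 and -0.34 ± 0.35 (edgeR adjusted p = 0.955 and 0.675).

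Neither glycolytic enzyme was called with Co against Ta in edgeR at any time. Hk2 ran from 39.9 to 105 CPM with Co at 3 months (median 44.3) and from 36.5 to 163 CPM with Ta (median 66.8), a log2 fold change of -0.52 ± 0.28 (edgeR adjusted p = 0.267). At 1, 6 and 12 months that of Hk2 was -0.04 ± 0.20, 0.20 ± 0.31 and -0.20 ± 0.17, with edgeR adjusted p of 0.948, 0.999 and 0.599. Ldha ran from 901 to 3220.4 CPM with Co at 3 months (median 1671) and from 295 to 2824 CPM with Ta (median 1933), a log2 fold change of -0.10 ± 0.37 (edgeR adjusted p = 0.874). With library totals in place of TMM factors it turned to 0.23, beside a median of all genes of 0.38. The fitted change of Ldha was negative at the other 3 times too, at -0.33 ± 0.27, -0.37 ± 0.22 and -0.41 ± 0.17, with edgeR adjusted p of 0.63, 0.884 and 0.312. At 12 months none of the 8 Co libraries lay above the Ta median for Ldha. P and DU had 1 of 8 each above it, with Ldha changes against Ta of -0.43 ± 0.19 and -0.54 ± 0.38. Co against P and DU was 0.02 ± 0.19 and 0.13 ± 0.38 there. Against Ta at 6 months, Ni, P and DU were at -0.20 ± 0.16, -0.23 ± 0.18 and -0.33 ± 0.22 for Ldha. At 1 month they were at 0.08, -0.12 and -0.03, and at 3 months at 0.42, 0.59 and 0.45. Ta at 6 and 12 months held places 1 and 2 of the group medians for Ldha. The RefSeq table lists 30 Ldha pseudogenes, and how the authors' counting treated reads shared by near-identical copies is not given in the sources used here. Ldha levels are uncertain to that extent.

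**Figure D2:**
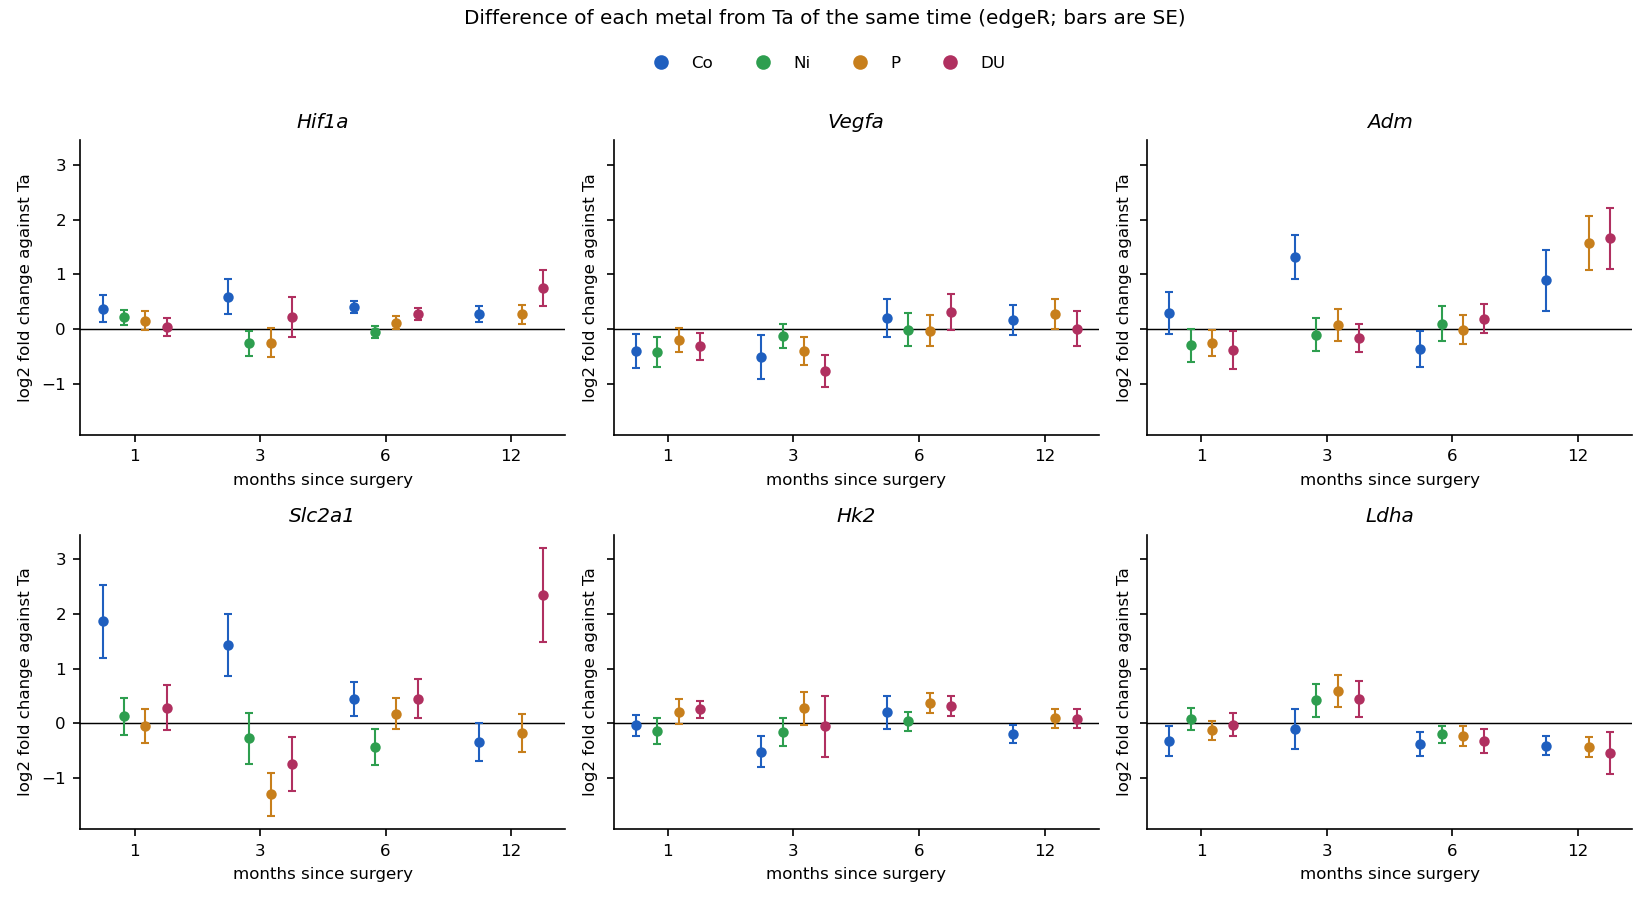
Log2 fold change of each gene for each metal against Ta of the same time, with the SE as bars, by months since surgery (edgeR). The values that stand farthest above 0 are Slc2a1 with Co at 1 and 3 months and with DU at 12 months, and Adm with Co at 3 months and with P and DU at 12 months, and no point passes an adjusted p of 0.05.

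The wide spread within Co came from a few libraries that were high or low for several members at a time. At 3 months, Co replicates 2, 3, 6 and 8 had 19.7, 8.10, 25.3 and 22.9 CPM of Slc2a1, and the other 4 had 2.29 to 4.70 CPM. The same 4 libraries had 67.9, 45.0, 50.9 and 49.4 CPM of Hif1a, against 17.8 to 31.2 CPM in the others. For Adm they had 8.29, 4.25, 6.89 and 10.9 CPM, against 1.71 to 4.07 CPM. Vegfa went the other way. It stood at 206, 214, 232 and 279 CPM in these 4 libraries and at 360.4 to 1294 CPM in the others. Ldha was low in 3 of them, at 901, 922 and 966 CPM in replicates 2, 6 and 8, and not in replicate 3, at 2042 CPM. Outside these 4 libraries, replicate 7 had 1300 CPM of Ldha. Hk2 did not separate them, at 39.9, 48.7, 41.9 and 42.6 CPM against 43.6 to 105 CPM.

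At 1 month, Co replicates 1 and 3 showed a similar profile. They had 27.2 and 26.9 CPM of Slc2a1, 47.4 and 55.0 CPM of Hif1a, and 5.15 and 5.01 CPM of Adm, each above the other 6 libraries of the group. Ldha was at 1267 and 993 CPM in them, the lowest of the group, with replicates 4 and 2 next at 1308 and 1470 CPM. Vegfa was at 333 and 156 CPM, also the lowest, although replicates 5 and 6 followed closely at 335 and 343 CPM. At 6 and 12 months Co libraries had at most 4.25 CPM of Slc2a1 and 27.6 CPM of Hif1a. Among all 150 libraries, 5 of the 6 highest for Slc2a1 and 4 of the 6 highest for Hif1a were Co libraries of 1 or 3 months, as were 3 of the 6 highest for Adm and 3 of the 6 lowest for Ldha. They made up 1 of the 6 lowest for Vegfa and 0 of the 6 lowest for Hk2. The highest Vegfa of all was in Co replicate 7 at 3 months. Such places were not counted over all genes.

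The 6 Co libraries set apart above also differed in overall composition. The 6 libraries with the most genes at 1 CPM or more, 12482 to 12798 against a median of 11525.5 over all libraries, were Co replicates 2, 3, 6 and 8 at 3 months and replicates 1 and 3 at 1 month. Their TMM factors were 1.34 to 1.89, against a median of 0.997, and the share of counts in their 10 most abundant genes was 15.5 to 23.5%, against a median of 28.3%. Whether these values bore on the member levels in the 6 libraries was not tested. DU replicate 5 at 12 months lay within both of the last ranges (1.48 and 20.2%), but held only 11053 genes at 1 CPM or more. Its Hif1a and Adm, at 21.3 and 1.98 CPM, lay near the medians over all libraries. Its Slc2a1, at 3.33 CPM, lay above the median of 2.26 CPM over all libraries and below each of the 6 Co libraries. Its Ldha and Vegfa were low, at 775 and 182 CPM.

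**Figure D3:**
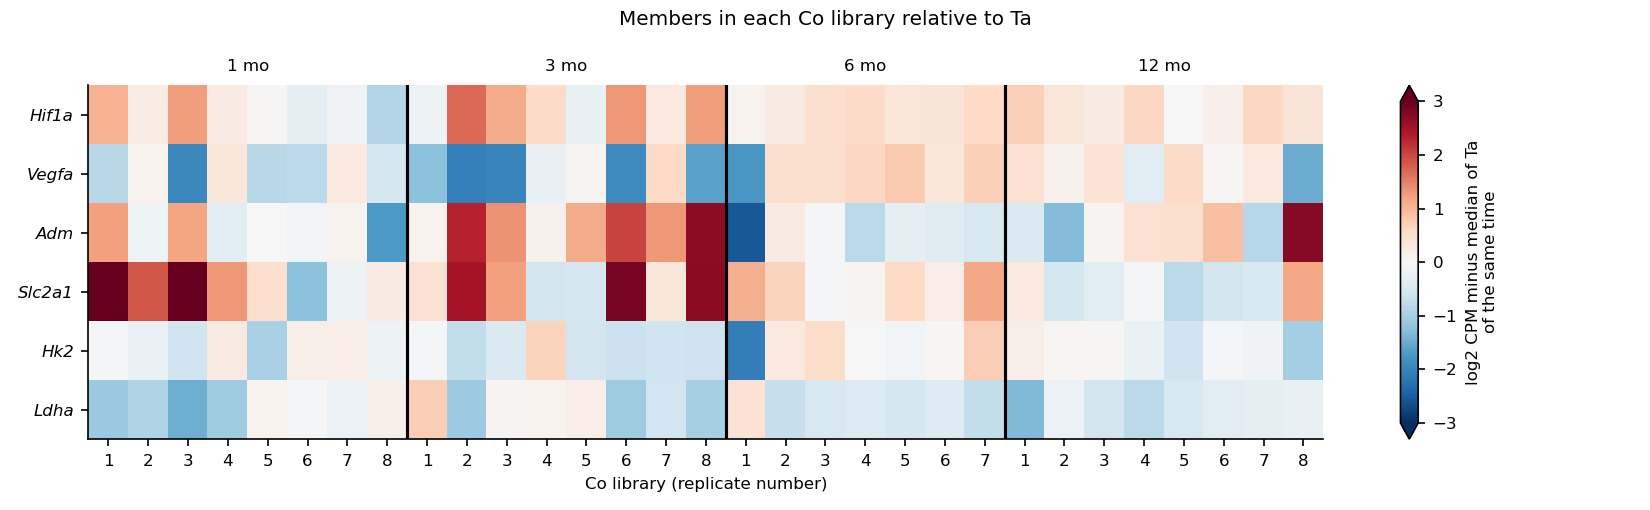
Each of the 31 Co libraries as a column, by time and replicate number, with the log2 CPM of each gene minus the median of Ta of the same time as colour, from blue (lower) to red (higher), and cut at 3 in either direction. Replicates 2, 3, 6 and 8 at 3 months and 1 and 3 at 1 month are red for Hif1a, Adm and Slc2a1 and blue for Vegfa.

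Co was then set directly against the other 3 implanted metals at the same time, which share the Co libraries. At 3 months Adm and Slc2a1 were higher with Co than with P and DU, and Adm and Hif1a were higher with Co than with Ni. Hif1a was also higher, and Hk2 lower, with Co than with P. Vegfa and Ldha were called in none of these comparisons with edgeR, while DESeq2 called Ldha lower with Co than with P and voom called it lower than with P and DU. DESeq2 called 3, 5 and 2 members against Ni, P and DU at 3 months, beside 16.8, 35.2 and 25.4% of all genes, and voom called 0, 5 and 5, beside 0.00806, 33.1 and 38.6%. Calls came to 2 of 6 members against Ni, 4 of 6 against P and 2 of 6 against DU, beside 12.2%, 29.1% and 17.5% of all genes tested. At 1, 6 and 12 months no member was called against any metal. The share of all genes called was 0.0, 7.66 and 7.91% against Ni, P and DU at 1 month, 0.0, 0.0 and 0.00813% at 6 months, and 0.0572 and 0.0% against P and DU at 12 months. Over these 8 comparisons 7 member tests had an unadjusted p under 0.05 in edgeR, and 17 of 66 did over all 11 comparisons of Co with another metal, where 22.7% of all gene tests did. DESeq2 called Slc2a1 against Ni, P and DU at 1 month, beside 7.38, 14.4 and 14.3% of all genes, and Hif1a against Ni at 6 months, beside 2.81%. Voom called Hif1a and Ldha against Ni at 6 months, beside 4.07%.

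Slc2a1 showed the largest difference. Its level at 3 months was 11.2 ± 9.74 CPM with Co, 3.43 ± 2.63 with Ni, 1.75 ± 0.600 with P and 2.47 ± 1.92 with DU (mean ± SD, n = 8 each). P ran from 0.802 to 2.58 CPM with a median of 1.66, so 6 of the 8 Co libraries exceeded the highest P library. The log2 fold change of Co was 2.76 ± 0.52 against P, or 6.75-fold (adjusted p = 0.00228), and 2.24 ± 0.60 against DU, or 4.73-fold (adjusted p = 0.0209), both in edgeR. Against Ni it was 1.78 ± 0.58, with an edgeR adjusted p of 0.0524 that missed the threshold, and DESeq2 called it (adjusted p = 0.0125). Slc2a1 kept its calls against P and DU in each of 16 fits per comparison that left out 1 library. Without DU replicate 2 its log2 fold change against DU was 2.70.

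Adm stood at 5.18 ± 3.23 CPM with Co, 1.97 ± 0.681 with Ni, 2.25 ± 0.757 with P and 1.89 ± 0.197 with DU at 3 months. DU was narrow, from 1.56 to 2.11 CPM, and 6 of 8 Co libraries lay above it. The log2 fold change of Co was 1.48 ± 0.39 against Ni, 1.27 ± 0.37 against P and 1.53 ± 0.35 against DU, or 2.78-, 2.42- and 2.89-fold. The edgeR adjusted p was 0.0225, 0.0191 and 0.0108. Without DU replicate 2 the change of Adm against DU was 1.51. Adm kept its call against DU in all 16 fits that left out 1 library and against P in 15 (adjusted p = 0.0517 without Co replicate 8). Against Ni it kept it in 13, with the call lost without Co replicate 2, 6 or 8 and a highest adjusted p of 0.0601.

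Hif1a stood at 38.3 ± 17.8 CPM with Co, 21.3 ± 4.15 with Ni and 22.0 ± 9.13 with P. Its log2 fold change of 0.91 ± 0.26 against Ni and 0.86 ± 0.30 against P had edgeR adjusted p of 0.0354 and 0.0388. These calls lay near the threshold. Over the 16 fits that left out 1 library, the log2 fold change of Hif1a ran from 0.74 to 1.02 against Ni and from 0.69 to 1.08 against P. Hif1a was called in 6 of 16 fits against Ni and in 5 of 16 against P, with adjusted p up to 0.0895 and 0.0927. The call against Ni went without Co replicate 2, 3, 6 or 8 or Ni replicate 1, 3, 5, 6, 7 or 8, and that against P without the same Co replicates or any P replicate but 4. Against DU, which held 1 library at 79.6 CPM of Hif1a (replicate 2), the log2 fold change was 0.43 ± 0.38 (edgeR adjusted p = 0.436). Without that library it was 0.89 with an adjusted p of 0.0221, and Co then had 4 called members against DU instead of 2, beside 35.6% of all genes instead of 17.5%.

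Hk2 was lower with Co than with P, at 53.8 ± 21.9 against 95.6 ± 42.7 CPM, a log2 fold change of -0.79 ± 0.26 (edgeR adjusted p = 0.0311). It was called in 10 of 16 fits that left out 1 library, and lost without Co replicate 2, 6, 7 or 8 or P replicate 3 or 4, with adjusted p up to 0.0644. Against Ni and DU its log2 fold change was -0.32 ± 0.20 and -0.45 ± 0.54. DU replicate 2, at 0.412 CPM of Hk2, weighs on the latter. Without it the change was -0.64 with an edgeR adjusted p of 0.023. The call against P also went with library totals in place of TMM factors, where the log2 fold change of Hk2 was -0.43 (adjusted p = 0.179) and the median of all genes was 0.42. Ldha was lower with Co than with P by a log2 change of -0.68 ± 0.27, which missed the threshold (edgeR adjusted p = 0.0602), although 6 of 8 Co libraries lay below the lowest P library. Vegfa was at -0.13 ± 0.39 (edgeR adjusted p = 0.817).

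**Figure D4:**
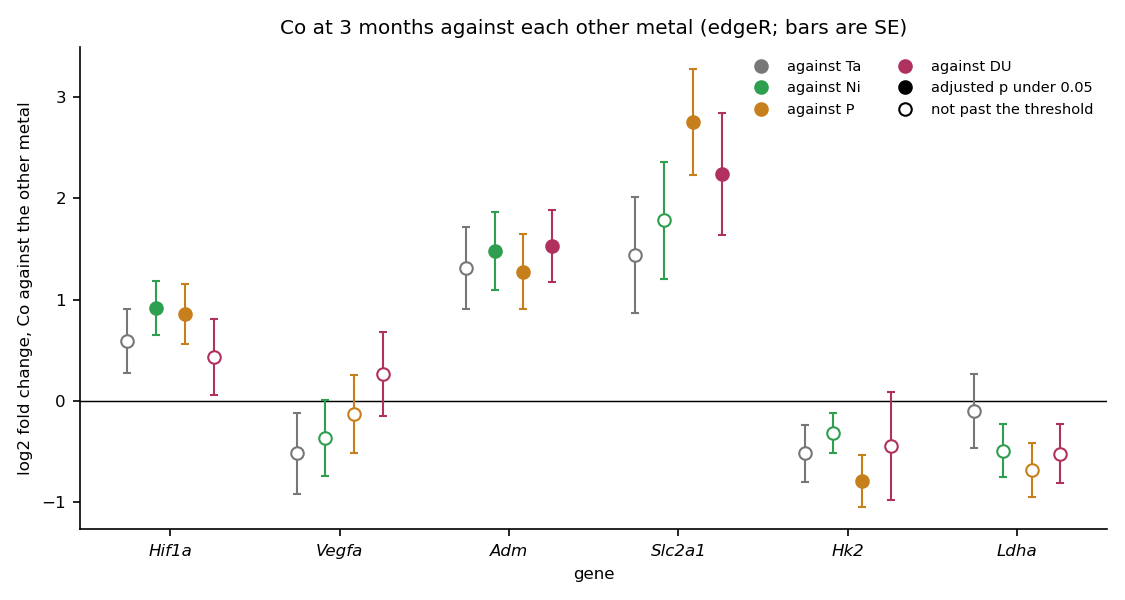
Log2 fold change of Co against Ta, Ni, P and DU at 3 months for each gene, with the SE as bars (edgeR), where filled points have an adjusted p under 0.05. Adm and Slc2a1 lie above 0 against each metal, and Hk2 and Ldha below 0, although with library totals in place of TMM factors Hk2 against Ni (0.03) and Ldha against Ta (0.23) come out above 0.

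The other metals gave no call of a member against Ta. Ni called none of 6 at 1, 3 and 6 months, beside 0.0% of all genes at each time. P called none beside 0.0, 0.338, 0.0 and 2.38% of all genes at 1, 3, 6 and 12 months, and DU none beside 0.0, 0.0, 0.0 and 0.00826%. The share for DU at 3 months was 6.05% without DU replicate 2, still with 0 of 6 members called. Over the 15 comparisons of a metal with Ta, Co included, 13 of 90 member tests had an unadjusted p under 0.05, where 13.2% of all gene tests did. DESeq2 made 4 member calls in these 15 comparisons and voom made 7. Outside Co these were Slc2a1 with P at 3 months by both tools, beside 8.29 and 32.7% of all genes, Vegfa and Ldha with P by voom, and Vegfa and Slc2a1 with DU at 3 months by voom, beside 38.4%.

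At 12 months Adm was 1.58 ± 0.50 log2 higher with P and 1.65 ± 0.56 log2 higher with DU than with Ta, with edgeR adjusted p of 0.106 and 0.23. For P, 5 of 8 libraries lay above every Ta library and all 8 above the Ta median. For DU, 6 of 8 lay above every Ta library and 7 above the Ta median. Ta at 12 months was itself low for Adm, at place 18 of the group medians from the top. In the P and the DU group alike, 1 library also stood far above the others. P replicate 5 had 13.8 CPM of Adm against at most 2.97 CPM in the other P libraries, and without it the log2 fold change was 0.85. DU replicate 6 had 16.4 CPM against at most 2.43 CPM in the others, and without it the change was 0.71. The same DU library had 77.5 CPM of Slc2a1 and 95.4 CPM of Hif1a, the highest of all 150 libraries for these and for Adm, and 228 CPM of Ldha, the lowest of all. Without this library the Slc2a1 log2 fold change of DU against Ta went from 2.35 to 0.00. It had 205 CPM of Vegfa. Its TMM factor of 1.56 and the 20.5% of counts in its 10 most abundant genes lay within the ranges of the 6 Co libraries named above, and its 11372 genes at 1 CPM or more lay below them and below the median over all libraries.

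At 3 months, P was lower than Ta for Slc2a1 by a log2 change of -1.30 ± 0.39 (edgeR adjusted p = 0.0784, DESeq2 adjusted p = 0.0246), with P at a median of 1.66 and Ta at 3.39 CPM. DU was lower than Ta for Vegfa by -0.77 ± 0.29 (edgeR adjusted p = 0.118, voom adjusted p = 0.00505), with medians of 451 and 852 CPM. For Slc2a1 the DU change was -0.74 (edgeR adjusted p = 0.349). Without DU replicate 2 the changes were -0.65 for Vegfa and -1.22 for Slc2a1, with edgeR adjusted p of 0.0828 and 0.074. Ta itself had its highest median for Vegfa at 3 months, above all other groups.

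The Co difference from Ta was compared between times. For Adm, the difference at 3 months was 1.69 ± 0.54 log2 above that at 6 months, with an adjusted p of 0.0746 in edgeR and 0.0299 in DESeq2. For Slc2a1, the difference at 3 months was 1.79 ± 0.69 log2 above that at 12 months (edgeR adjusted p = 0.195) and -0.45 ± 0.87 relative to that at 1 month (edgeR adjusted p = 0.999). None of the 6 genes passed in any of these 3 tests with edgeR, beside 0.0, 3.41 and 1.21% of all genes for 3 months against 1, 6 and 12 months. There were 2 of 18 member tests at an unadjusted p under 0.05, where 12.7% of all gene tests were. DESeq2 called Adm, and voom called Vegfa (log2 change -1.47, adjusted p = 0.0245), both for 3 against 6 months and beside 6.94 and 12.0% of all genes.

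In the Ta groups no member was called at 3, 6 or 12 months against 1 month with edgeR, beside 0.00813, 9.84 and 17.7% of all genes. There were 4 of 18 member tests at an unadjusted p under 0.05, where 23.2% of all gene tests were, with 1 call by DESeq2 and 2 by voom at 6 months, beside 17.4 and 18.1% of all genes. Hif1a was -0.37 ± 0.12 log2 at 6 months (edgeR adjusted p = 0.0612), and both other tools called it. Ldha at 6 months was 0.44 ± 0.20 log2 (edgeR adjusted p = 0.148), and Adm at 12 months was -0.79 ± 0.35 log2 (edgeR adjusted p = 0.125).

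Members were then compared across libraries after the mean of each group had been taken from its log2 CPM, in 15 pairs over 150 libraries. Permutations shuffled libraries over all groups and not within each. Spread differed between groups, so the permutation p-values below may be too small. Libraries with more Hif1a RNA had more Slc2a1 RNA (Pearson r = 0.62, Spearman rho = 0.45) and less Ldha RNA (r = -0.70, rho = -0.61). Slc2a1 and Ldha were also inversely related (r = -0.58, rho = -0.50). For each of these 3 pairs both permutation p were 1e-05, the smallest that 100000 resamples can give, with adjusted p over the 15 pairs of 4e-05 for r and 5e-05 for rho. Without the 2 libraries farthest from the median of the gene named first in the pair, r was 0.54, -0.66 and -0.48. Without all Co libraries it was 0.55, -0.68 and -0.56 over 119 libraries.

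Slc2a1 and Adm went together more weakly (r = 0.36, permutation p = 2e-05, adjusted p = 6e-05; rho = 0.23, permutation p = 0.00523, adjusted p = 0.00981; r = 0.25 without the 2 farthest libraries). For Hif1a and Adm r was 0.15 (adjusted permutation p = 0.101) and rho was -0.06 (adjusted permutation p = 0.569). Without all Co libraries r of Hif1a and Adm was -0.03. Hif1a and Vegfa gave r = 0.02 (permutation p = 0.837, adjusted p = 0.837) and rho = 0.23 (permutation p = 0.0044, adjusted p = 0.00943), with r = 0.15 without the 2 farthest and 0.21 without all Co libraries. Vegfa and Hk2 gave r = 0.35 (permutation p = 1e-05, adjusted p = 4e-05) and rho = 0.25 (permutation p = 0.00219, adjusted p = 0.00547), with r = 0.31 without the 2 farthest and 0.29 without all Co libraries. Ldha and Adm gave r = -0.30 (adjusted permutation p = 0.00075) and rho = -0.19 (adjusted permutation p = 0.0313). Vegfa and Ldha gave r = -0.19 (adjusted permutation p = 0.0299) and rho = -0.35 (adjusted permutation p = 7e-05). Vegfa and Adm gave r = -0.20 (adjusted permutation p = 0.0278) and rho = -0.22 (adjusted permutation p = 0.0101). Slc2a1 and Vegfa gave r = -0.20 (permutation p = 0.0148, adjusted p = 0.0278) and rho = -0.05 (permutation p = 0.548, adjusted p = 0.588). Without the 2 libraries farthest from the Vegfa median that r was -0.23, and without all Co libraries it was -0.01, so it rested on the Co libraries. All genes of a library share its scaling and its tissue makeup, and no lane or batch is given by which these relations could be split.

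**Figure D5:**
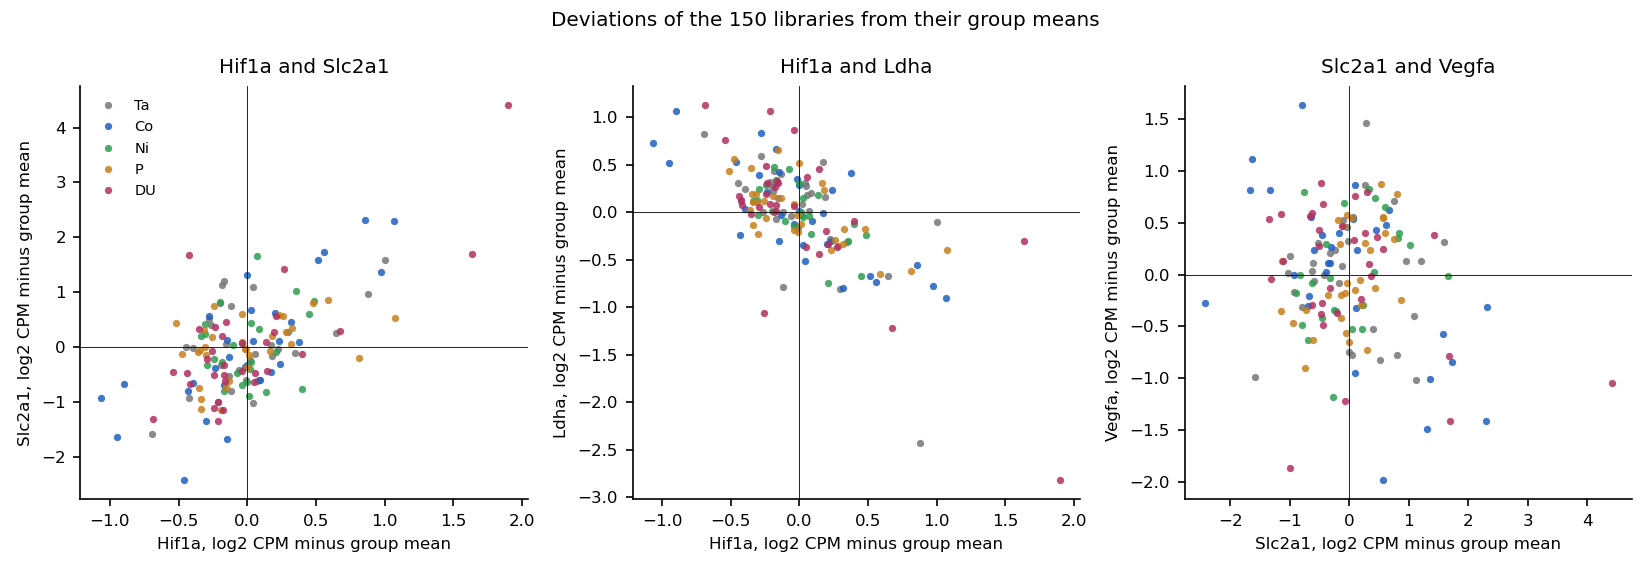
Deviation of each of the 150 libraries from its group mean, in log2 CPM, for Hif1a against Slc2a1, Hif1a against Ldha, and Slc2a1 against Vegfa, coloured by metal. Hif1a goes up with Slc2a1 (r = 0.62) and down with Ldha (r = -0.70) over libraries of all metals, while the low Vegfa values at high Slc2a1 are mostly Co libraries.

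Over the 19 group means of log2 CPM, 12249 other genes of at least 1 CPM on average were ranked by their likeness to each member. The closest to Ldha was ENSRNOG00000009373 (Pearson r = 0.97 over 19 groups) and the closest to Vegfa was ENSRNOG00000028426 (r = 0.95). Neither identifier could be paired with a name. As the highest of many correlations over few groups, these values are a description.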

How the data were processed

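RNA of 150 libraries of rat gastrocnemius was measured. A stranded kit was applied to 1000 ng of total RNA and reads were paired, of 100 bases, per the labels' protocols. The authors deposited raw counts for each gene. The submitters' processing notes name HISAT2 2.0.5, featureCounts 1.5.0-p3 and build Rnor 6.0. Which annotation release and strand setting were used is not given in the sources used here. Reads of overlapping or antisense genes, and of near-identical copies, may therefore be shared.

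A comparison was fitted on its own groups only (2, or 4 for a difference between times), with filterByExpr, TMM factors and robust glmQLFit and glmQLFTest of edgeR 4.0.16 (R 4.3.3), Benjamini-Hochberg adjustment over all genes tested and a threshold of 0.05. SE values are the absolute log2 fold change divided by the root of edgeR's F. There were 32 comparisons, 15 of a metal with Ta, 11 of Co with another metal, 3 between times for Co against Ta and 3 between times within Ta. All 6 members passed the filter on low counts in each. Log2 CPM used a prior count of 2, and pairs were tested with numpy 2.4.6 and scipy 1.17.1. Fits were tested on simulated data. Alternatives were size factors of DESeq2 1.42.0, its Wald test, no filter, voom of limma 3.58.1 with sample weights, all libraries in 1 model, the replicate number as a block, and leave-one-out fits. Library totals without TMM, further leave-one-out fits and pairs without Co were chosen after seeing the data.

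All 6 members were named by rule in every comparison, and of the genes most like each member the 2 with the highest correlation. The members and lists were chosen with earlier results of these data known. Lists of 51 pathway genes and 62 cell type markers were not tested, because 0 of 32545 identifiers could be paired with a name. No 2 libraries of a group agreed within sampling noise (chi-square of at least 10.8 times its degrees of freedom). Replicate numbers were checked for pairing by the correlation of same-numbered libraries. Co and Ta at 3 months was the 1 of 29 pairs of groups with all 8 correlations over 0.1, from 0.109 to 0.426. The labels say nothing of a shared animal, litter or day.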

Additional observations from a re-analysis of the deposited data

Results flagged for a closer look

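In 19 of 114 groups of libraries (6 genes in 19 groups), the highest or lowest library stood apart from its group by Dixon's criterion on log2 CPM. Chance flags about 1 in 20 groups, or 5.7 of 114. Several of these values came from the same few libraries. DU replicate 6 at 12 months was high for Adm (16.4 CPM), Hif1a (95.4 CPM) and Slc2a1 (77.5 CPM). DU replicate 2 at 3 months was high for Hif1a (79.6 CPM) and low for Hk2 (0.412 CPM). Co replicate 1 at 6 months was low for Adm (0.297 CPM), Hk2 (19.9 CPM) and Vegfa (107 CPM) and high for Ldha (4581 CPM). DU replicate 8 at 6 months was high for Ldha (5531 CPM) and low for Vegfa (126 CPM), and Ta replicate 5 at 6 months was low for Ldha (1928 CPM) and high for Vegfa (1011 CPM).

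The others stood apart for 1 gene each. Adm was high in P replicate 5 at 12 months (13.8 CPM) and low in P replicate 8 at 6 months (0.671 CPM). Hif1a was high in P replicate 4 at 3 months (44.0 CPM). Ldha was low in DU replicate 8 at 1 month (1029 CPM) and in Ta replicate 2 at 3 months (295 CPM). Vegfa was low in Co replicate 8 at 12 months (178 CPM).

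A member was called with Co directly against another metal at 3 months, by edgeR's test, in 8 cases. Against Ni these were Hif1a (log2 fold change 0.91) and Adm (1.48). Against P they were Slc2a1 (2.76), Adm (1.27), Hif1a (0.86) and Hk2 (-0.79), and against DU Slc2a1 (2.24) and Adm (1.53). The share of all genes called in the same comparisons was 12.2, 29.1 and 17.5% against Ni, P and DU.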

How the results depend on the processing

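Counts of called members depended on the fit, as did the share of all genes called. Against Ta, where edgeR called 0, DESeq2 called 1 for Co at 1, 3 and 6 months and for P at 3 months, and voom called 2 for Co at 6 months, 3 for P at 3 months and 2 for DU at 3 months. All libraries in 1 model called 1 for Co at 1 month, 2 for Co at 3 months, 1 for P at 12 months and 2 for DU at 12 months (11.5, 22.1, 0.772 and 5.06% of all genes), and library totals without TMM called 2 for Co at 3 months (22.6%), a scaling that put the median log2 fold change of all genes at 0.38. For Co against other metals, DESeq2 called 1 against Ni, P and DU at 1 month and 1 against Ni at 6 months. The single model called 1 against Ni, P and DU at 1 month and 1 against DU at 12 months (23.3, 17.2, 19.3 and 3.22%). Voom called 0 against Ni at 3 months, 2 against Ni at 6 months and 5 against DU at 3 months. For 3 against 6 months of Co, DESeq2, voom and library totals each called 1 (the last beside 10.4%). For Ta at 6 against 1 month, DESeq2 called 1 and voom 2. With the replicate number as a block, calls at 3 months were 0 against Ni, 3 against P (Slc2a1, Hk2 and Adm) and 0 against DU (0.0, 25.7 and 7.9% of all genes), and 1 for Ta at 12 against 1 month (Hk2, 17.2%). Against DU the block gave Slc2a1 and Adm adjusted p of 0.0633 and 0.0666. By the rule that all correlations of same-numbered libraries exceed 0.1, replicate numbers did not pair these groups. For Co and DU at 3 months 6 of 8 exceeded it. The median there was 0.204, against 0.163 for Co and Ta at 3 months. Same-numbered libraries were not compared with differently numbered ones. The block changed no other member call. For Co against Ta at 3 months, where all 8 correlations exceeded 0.1, the block called 1 gene instead of 801 and 0 members. Leaving out 1 library in turn gave 0 to 4 called members for Co against Ni, 1 to 5 against P, 2 to 4 against DU and 0 to 1 against Ta, all at 3 months (5.2 to 20.8, 17.2 to 39.7, 9.64 to 35.6 and 2.92 to 12.2% of all genes), and 0 for Co against Ta at 1, 6 and 12 months, for P and DU against Ta at 12 months and for Co against DU at 12 months. Of 1344 fold changes under other fits, 1290 kept their side of the threshold, 45 gained a call and 9 lost it, and no called fold change changed sign. Among the 1290, 61 changed sign and were called in neither fit. Depth limits Adm most, with 2 counts in its lowest library.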
